A study of Mus musculus with 50 samples.

Results

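A/J is an inbred albino mouse strain best known for a loss of dysferlin, a protein that helps to reseal torn cell membranes, and the results below describe its dorsal root ganglia. The ganglia were profiled as 2 arrays, 1 of a pool of 3 males and 1 of a pool of 3 females, out of 50 arrays in the series. They were compared with the 44 arrays of 22 other inbred strains, again 1 male and 1 female pool of 3 mice each. These strains were AKR/J, BALB/CByJ, 129S1/Sv1mJ, BTBT T+tf/J, SJL/J, c57BL/6J, NZW/LacJ, BUB/BnJ, CBA/J, KK/HIJ, C58/J, RIIIS/J, NZO/HILtJ, DBA/2J, C3H/HeJ, NOD/LtJ, C57BR/cdJ, FVB/NJ, P/J, MRL/MpJ, SWR/J and NON/LtJ. All mice were untreated, 2 months old and labelled as wild type, so the A/J variants are those the strain carries naturally. The 4 arrays of SM/J and PL/J were left out because their labels are in doubt.

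The dorsal root ganglion holds the cell bodies of the sensory neurons that carry touch, pain, itch and body position to the spinal cord, together with Schwann cells, satellite glia and resident macrophages. Dysferlin is a ferlin, a membrane protein with many C2 domains that bind calcium and lipid, and it acts in skeletal muscle with annexins, caveolin and calpains to close membrane wounds. A/J mice carry a retrotransposon inside an intron of Dysf and develop a slow muscle disease, while less is known of dysferlin in sensory ganglia.

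All levels are log2(intensity + 1), and a difference is the A/J mean minus the mean of the other 22 strains on that scale, with the standard error (SE) of the fit. A gene was called when its adjusted p was under 0.05 and both A/J arrays lay on the same side of the mean of the other strains of their sex. The error is the spread between the male and the female pool within strains. Nothing in the labels says that the pools came from separate litters or cages, so the p-values measure the spread between these pools.

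A log2 intensity of 4 was exceeded by 18866 probe sets in the A/J male and 19157 in the A/J female array, within the 18703 to 19327 of all arrays. Centred within each sex, the A/J arrays correlated at r = 0.60 over probe sets, which was the eighth highest of the 23 strains. The difference between the 3' and 5' probes of Gapdh, a sign of RNA integrity, was -0.65 and -0.70 in A/J, within the range of -0.73 to 0.60 over all arrays. Transcripts of the sex chromosomes matched the sex labels of both A/J arrays. The neuron markers Rbfox3, Uchl1, Tubb3, Snap25, Prph, Isl1, Pou4f1 and Avil and the Schwann cell markers Mbp and Pmp22 were within the range of the other arrays.

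With each gene read from its brightest probe set, Dysf, on chromosome 6, had the largest difference of any of the 11183 genes tested. The RefSeq upstream sequence of its promoters is shown because no other gene separated A/J so widely on this reading. It is reference sequence of build GRCm38.p6, not that of A/J, and covers the 250 bases before each of the gene's listed start sites. Capitals mark the GC box, searched as GGGCGG and CCGCCC, which is the recognition site of Sp family factors.
Dysf upstream start, chr6:84008348-84008597, plus strand: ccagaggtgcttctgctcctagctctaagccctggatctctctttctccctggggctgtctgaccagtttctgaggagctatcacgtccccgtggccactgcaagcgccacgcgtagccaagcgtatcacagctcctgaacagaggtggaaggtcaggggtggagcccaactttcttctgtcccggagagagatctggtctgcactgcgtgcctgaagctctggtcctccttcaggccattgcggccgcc
Dysf downstream start, chr6:84019136-84019385, plus strand: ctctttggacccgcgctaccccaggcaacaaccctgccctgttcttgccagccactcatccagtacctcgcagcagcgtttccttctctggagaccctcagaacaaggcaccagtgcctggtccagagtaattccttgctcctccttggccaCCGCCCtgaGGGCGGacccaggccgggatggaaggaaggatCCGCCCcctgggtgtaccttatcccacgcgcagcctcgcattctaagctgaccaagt
The first run held 0 GC boxes and the second 3, and 32.7% of the 32851 RefSeq promoters of the same length held at least 1. Neither run held the letters TATAAA of a TATA box on either strand, which 12.4% of those promoters held. Bases G and C made up 60% of the first run and 61.2% of the second.

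The Dysf signal was 2.74 in the male and 2.32 in the female A/J array. The other 22 male arrays ran from 5.73 over a median of 7.31 to 7.78, and the other 22 female arrays from 5.17 over 6.83 to 7.61. Both A/J arrays were thus below every other array of their sex, and the nearest one was 2.86 higher. Only RNA was measured, so a signal in another strain does not show that it has working dysferlin. Dysf fell by 4.42 (SE 0.24, limma, adjusted p = 9.5e-13). With the spread between strains as the error the adjusted p was 8.74e-11. On the linear scale the A/J values were 5.69 and 3.99 intensity units, below the medians of 9.57 and 9.76 of these 2 arrays. The A/J level is thus low, and the size of the fall depends on how low values are treated. With log2(value + 16) the fall was -2.75 (limma, adjusted p = 4.2e-10). A single tested probe set reports the gene. The 4 arrays left out, of SM/J and PL/J, had 6.15 to 7.67, far from A/J. In bulk ganglia fewer cells that express a gene and less RNA per cell cannot be told apart, which holds for every gene below.

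**Figure D1:**
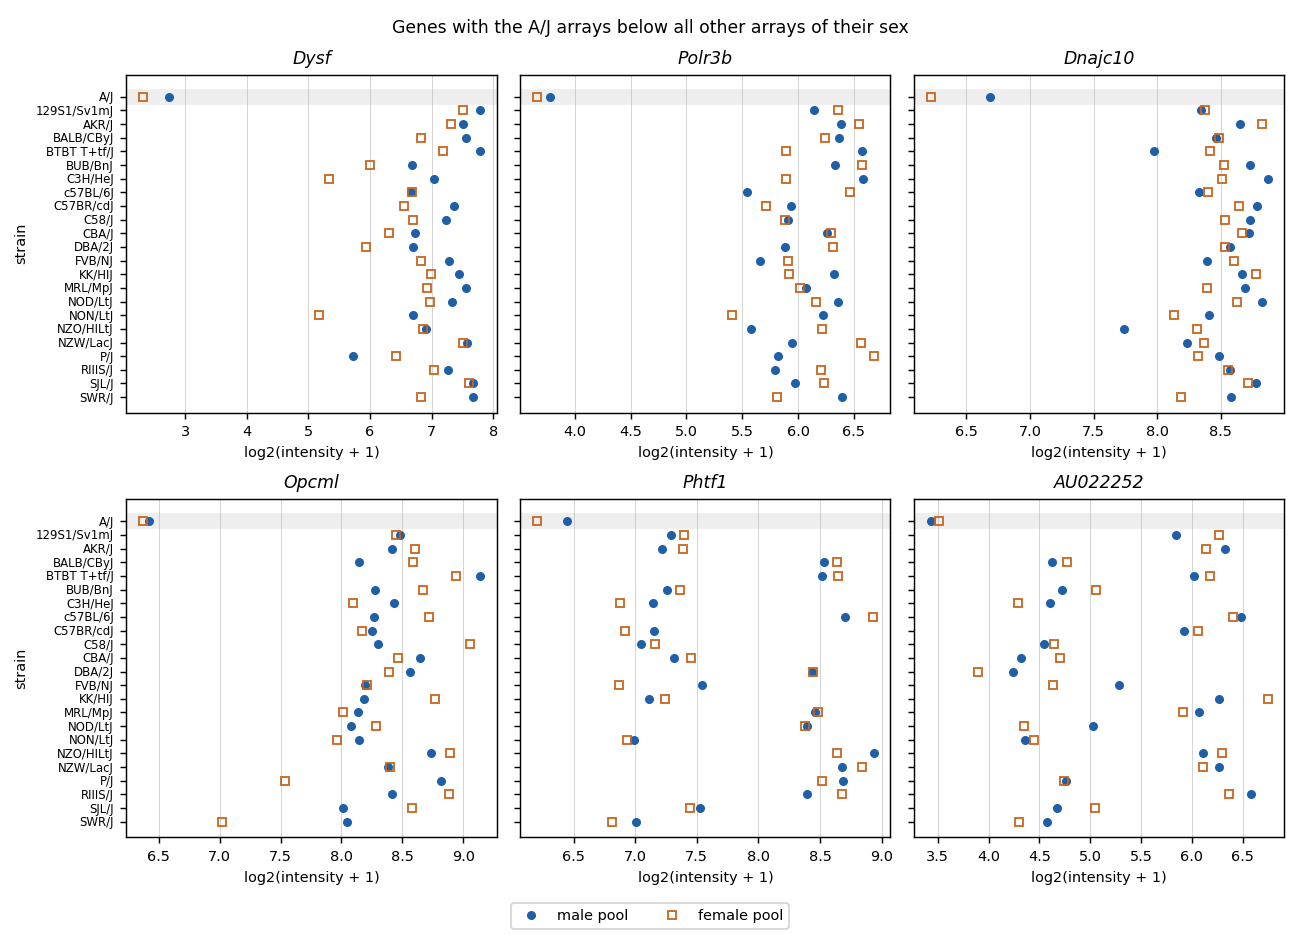
Levels of 6 genes in the male (filled circle) and female (open square) pool of each of 23 strains, in log2(intensity + 1); A/J is shaded. Both A/J points lie below all other points of their sex in each panel, by 2.86 for Dysf and by 0.39 for AU022252.

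None of the tested partners of dysferlin in membrane repair was called. The list held 23 genes, of which 17 passed the filter on dim probe sets, and only Dysf was called. At the share of 2.52% over all genes, a list this short would hold few calls, so their lack says little about the partners. The median difference of the 17 was 0.02, beside -0.02 over all genes. Cavin1, a coat protein of caveolae, was at 8.31 and 8.29 against medians of 7.57 and 7.71 (difference 0.65, SE 0.21, adjusted p = 0.11). Parvb, which binds dysferlin at the sarcolemma, was at 6.90 and 6.03 against 7.27 and 7.04 (difference -0.72, SE 0.33, adjusted p = 0.371). The SNARE proteins Vamp8 and Snap23 had differences of 0.46 and 0.45, and the annexins Anxa1, Anxa2, Anxa5, Anxa6 and Anxa7 ran from -0.12 to 0.30, none of them called. The other ferlins Myof and Otof and the muscle repair genes Cav3, Trim72 and Capn3 did not pass the filter, and neither did S100a11.

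Across the whole array 282 genes were called (2.52%), 121 higher in A/J (1.08%) and 161 lower (1.44%). Of these, 29 were higher by at least 1 log2 unit (0.259%) and 44 lower (0.393%), 73 in all (0.653%). The same fit called 523 of 22130 probe sets (2.36%), 234 higher (1.06%) and 289 lower (1.31%). Of these, 188 were apart by at least 1 log2 unit (0.85%), 81 higher (0.366%) and 107 lower (0.484%). Without any test, both A/J arrays lay above the mean of their sex in 28.2% of genes and below it in 40.8%. These calls rest on the agreement of a male and a female pool, and far fewer hold when A/J is set against the spread between strains: that fit called 27 genes (0.241%), 14 of which were among the 73. Of the 282 genes, 51 stayed called when either A/J array was left out in turn, and 39 of the 73 did.

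**Figure D2:**
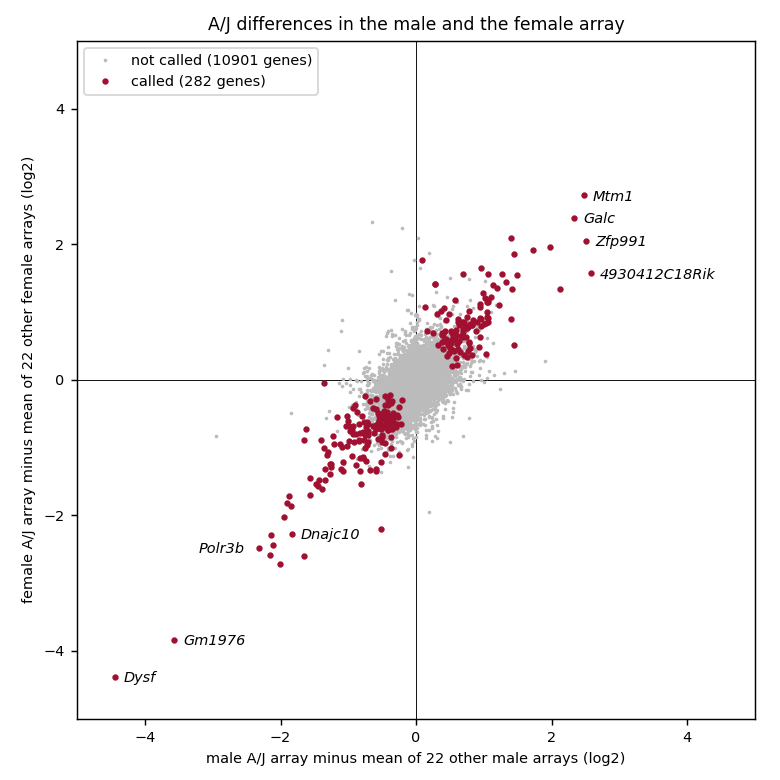
Each point is a gene, with the difference of the male A/J array from the mean of the 22 other male arrays on the x axis and that of the female A/J array from the 22 other female arrays on the y axis, both in log2 units. The 282 called genes are in red, with Dysf and Gm1976 at the lower left and Mtm1 and Galc at the upper right.

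Some of the falls separated A/J from every other strain, and their products act in unrelated parts of the cell. Polr3b encodes the second largest subunit of RNA polymerase III, which makes transfer RNA. It was at 3.78 and 3.66 in A/J, while the other males ran from 5.55 over 6.11 to 6.58 and the other females from 5.40 over 6.21 to 6.68. The gap to the nearest array was 1.74, and Polr3b, on chromosome 10, fell by 2.40 (SE 0.23, adjusted p = 7.9e-08), with both of its probe sets called lower.

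Dnajc10, on chromosome 2, encodes a disulfide reductase of the endoplasmic reticulum that takes part in the breakdown of misfolded proteins. Its A/J values were 6.69 and 6.22, against 7.74, 8.58 and 8.87 as the lowest, median and highest male value and 8.13, 8.52 and 8.82 as those of the females. The groups did not overlap. The gene fell by 2.05 (SE 0.13, adjusted p = 2.7e-11), and all 3 of its probe sets were called lower.

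Opcml, on chromosome 9, encodes an adhesion molecule of neuronal surfaces that belongs to the IgLON family. It was at 6.42 in the male and 6.37 in the female A/J array, below the 8.02 to 9.14 of the other males and the 7.02 to 9.05 of the other females, with medians of 8.29 and 8.46. SWR/J held the lowest of these female values. Opcml was called lower by both of its probe sets (leading one: difference -1.98, SE 0.23, adjusted p = 1.8e-06). Dysf, Polr3b, Dnajc10 and Opcml were also called with the spread between strains as the error, and the SM/J and PL/J arrays lay above A/J in all of them.

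Phtf1 and AU022252 were lowest in A/J as well, but the other strains themselves split into a low and a high set. Phtf1, a putative transcription factor gene on chromosome 3, was at 6.44 and 6.20 in A/J against 6.99 to 8.94 in the other males and 6.81 to 8.93 in the other females (difference -1.50, SE 0.12, adjusted p = 1.3e-09). AU022252, on chromosome 4, was at 3.43 and 3.51 in A/J and from 4.24 to 6.58 and from 3.90 to 6.74 in the others (difference -1.87, SE 0.16, adjusted p = 7.4e-09), with DBA/2J nearest. Neither was called with the spread between strains as the error (adjusted p = 0.414 and 0.319). For AU022252 only 1 of 2 tested probe sets was called lower.

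Further genes with a fall of this kind were picked after their values were seen. Dap, a death-associated protein gene, had both A/J arrays below all others (6.39 and 6.34, difference -1.04, adjusted p = 6.3e-06) and both of its probe sets called. Chst8, a sulfotransferase of hormone sugar chains, was below all others too (4.61 and 4.18, difference -1.27, adjusted p = 3.3e-06), as was Paqr6, a membrane receptor gene (5.20 and 5.45, difference -1.18, adjusted p = 0.000152). Ctns, which encodes the exporter of cystine from lysosomes, was at 4.70 in the male but 2.74 in the female array. The female value lay below all other females, which began at 4.45, whereas the male value lay above the lowest other male at 4.66. Ctns was called (difference -1.36, SE 0.20, adjusted p = 8.9e-05), but not without the female A/J array (adjusted p = 0.332).

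Over all tested genes, both A/J arrays were below every other array of their sex in 93 genes (0.832%) and above them in 63 (0.563%), 156 genes in all (1.39%). Of the called genes, 50 were below and 24 above. Of the 73 genes apart by at least 1, A/J had the lowest strain mean in 22 and the highest in 9.

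Other falls were shared with further strains. Gm1976, a predicted gene on chromosome 17, was at 3.14 and 3.00 in A/J and at 6.99 and 7.20 in the median other male and female array, and CBA/J and NOD/LtJ lay with A/J (difference -3.70, SE 0.14, adjusted p = 1.2e-16). Ccl27a, a chemokine of epithelia that draws T cells, was at 4.91 and 4.75 against medians of 7.20 and 7.36, and BALB/CByJ and C3H/HeJ shared the low level (difference -2.27, SE 0.15, adjusted p = 4.1e-11). Here and below, a strain shares the A/J level when its mean lies on the A/J side of the midpoint between A/J and the median of the other strain means.

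Ly86, whose product MD-1 sits on the immune receptor RP105, was at 8.82 and 9.37 in A/J, while the other males ran from 7.58 over 11.12 to 12.28 and the other females from 8.46 over 11.53 to 12.44. The low level was shared by 6 strains, among them BALB/CByJ, CBA/J and C3H/HeJ, and 3 strains lay below A/J (difference -1.80, SE 0.16, adjusted p = 7.9e-09). Slc39a8, a zinc and manganese importer, was at 3.25 and 3.28 against medians of 5.59 and 5.76, with 4 strains on its side (difference -2.22, SE 0.20, adjusted p = 2.0e-08). Nptx2, a neuronal pentraxin that clusters glutamate receptors, was at 4.97 and 4.60 against 7.03 and 6.91, with 7 strains on its side (difference -1.64, SE 0.25, adjusted p = 0.0001). For Slc39a8 and for Nptx2, only 1 of 2 tested probe sets was called lower.

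The next largest falls under the naming rule were those of Fam178b (-2.37), Zfp945 (-2.36), Serpina1b (-2.13), Fam89a (-1.85) and Commd9 (-1.51), each with 3 to 7 strains on the A/J side. For Zfp945 and for Commd9, only 1 of 3 tested probe sets was called lower. Serpina1b belongs to a cluster of near-identical antitrypsin genes, so its probe sets may report related transcripts, and its call was lost without the female A/J array (adjusted p = 0.467). Among the 44 genes lower by at least 1, A/J was alone on its side in 8, and 18 had both A/J arrays below the filter level of 4.

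Among the 29 genes higher by at least 1, A/J was alone on its side in 1. Mtm1 had the largest rise of the 29, with each gene read from its brightest probe set. The gene, on the X chromosome, encodes myotubularin, a phosphatase of membrane phosphoinositides. It was at 10.03 in the male and 9.78 in the female A/J array, while the other males ran from 6.21 over 7.13 to 10.55 and the other females from 5.26 over 6.95 to 9.86. RIIIS/J lay above A/J in both sexes, and MRL/MpJ and BUB/BnJ were also high. Mtm1 rose by 2.60 (SE 0.24, adjusted p = 2.4e-08). Another probe set had a difference of 3.79, also with 3 strains on its side, but the last one had 0.03 and was not called, so the probe sets of this gene disagree.

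Galc encodes the lysosomal enzyme that breaks down galactosylceramide, the main glycolipid of myelin. Its signal fell into 2 sets of strains, and A/J at 7.07 and 7.18 was in the high one with 9 other strains, while the median of the other arrays was 3.63 in males and 3.18 in females (difference 2.36, SE 0.22, adjusted p = 2.3e-08). The call therefore describes a split among the strains, in which A/J is 1 of 10 with the high level. Zfp991, a zinc finger gene on chromosome 4, was at 7.12 and 6.68 against medians of 4.46 and 4.40 (difference 2.28, adjusted p = 1.2e-06).

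Tlr4, the receptor for bacterial lipopolysaccharide, was at 4.95 in the male and 5.46 in the female A/J array. The other males ran from 3.04 over 3.36 to 5.04 and the other females from 3.28 over 3.86 to 5.06. BALB/CByJ alone shared the high level, with a male value above that of A/J, and all the other arrays lay below both A/J values. Tlr4, on chromosome 4, rose by 1.52 (SE 0.14, adjusted p = 1.9e-08; with the spread between strains as the error, 0.000719) and both tested probe sets were called. Tlr1, which senses bacterial lipopeptides, was at 5.13 and 6.33 against medians of 3.00 and 3.33, with 9 strains on its side (difference 1.74, SE 0.34, adjusted p = 0.00246; 0.347 without the female A/J array).

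**Figure D3:**
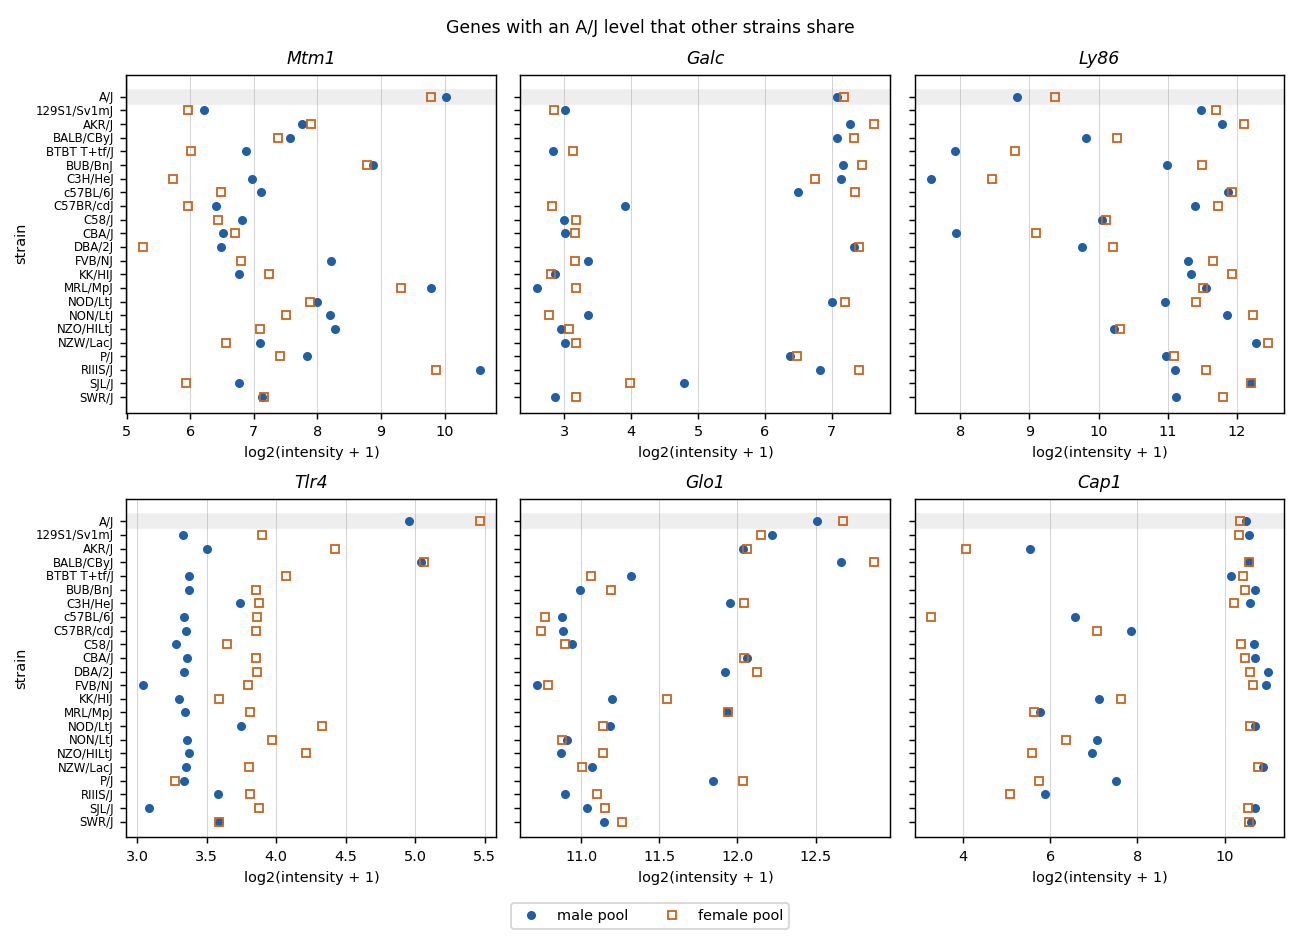
Levels of 6 called genes in the male (filled circle) and female (open square) pool of each strain, in log2(intensity + 1), with A/J shaded. A/J lies with BALB/CByJ alone in Tlr4, with 9 other strains in Galc and near the middle of all strains in Cap1.

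Xpa and Rmdn1 were called higher with no other strain on the A/J side. Xpa, which binds damaged DNA in nucleotide excision repair, was at 7.09 and 7.40, above the 5.43 to 6.80 of the other males and the 5.40 to 6.59 of the other females (difference 1.13, SE 0.19, adjusted p = 0.000309; 0.00521 with the spread between strains as the error). Rmdn1, a gene of a microtubule-associated protein, was at 7.86 and 8.05, above highest values of 7.55 and 7.42 (difference 0.86, SE 0.16, adjusted p = 0.00118), although 1 of its 5 tested probe sets was called. Smr2, a salivary gland peptide gene, was at 7.55 and 7.66, above 7.13 and 7.24 (difference 1.38, SE 0.32, adjusted p = 0.0125). Without the male or the female A/J array the adjusted p was 0.0523 and 0.0935 for Rmdn1 and 0.175 and 0.356 for Smr2, and without the female array it was 0.097 for Xpa.

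Some genes were called because other strains were extreme. Cap1, an actin-binding protein gene, was at 10.50 and 10.36 in A/J and was called higher (difference 1.66, SE 0.38, adjusted p = 0.0144), yet A/J ranked 12 of 23 strains, because a set of other strains lay far below, down to 3.27. This Cap1 call was lost without either A/J array (adjusted p = 0.125 and 0.49). Cpne8, a copine gene, was likewise called higher than the mean (1.97) at 9.35 and 9.17, but A/J was only 0.27 above the median of the other strains, 7 of which lay below 4 in both arrays. Of the 73 genes apart by at least 1 log2 unit from the mean, 60 were so from the median of the other strains too, and 8 lay within 0.5 of that median. The 4 tested probe sets of Glo1, a glyoxalase gene whose level differs among inbred strains, were all called higher. Its leading one was at 12.51 and 12.67 against medians of 11.17 and 11.17, with 8 other strains on the A/J side (difference 1.17, SE 0.09, adjusted p = 1.1e-09).

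The next largest rises under the naming rule were those of 4930412C18Rik (2.07, shared by NOD/LtJ alone), Baiap2l1 (1.82), a membrane-bending protein gene, and Slc47a1 (1.73), an exporter of organic cations. Smim5 (1.41), Sspn (1.37), which encodes sarcospan of the dystrophin complex, Car8 (1.31) and Cyp2j13 (1.30) followed, with 6 to 9 strains on the A/J side. Without the female A/J array Slc47a1 (adjusted p = 0.184), Sspn (0.349), Car8 (0.0991) and Cyp2j13 (0.37) lost their call, and without the male array Slc47a1 (0.611) and Sspn (0.296) did. For 27 of the 73 genes more than 1 probe set was tested, and in 13 of these at least 2 were called the same way, against 33 of 122 among all called genes with more than 1 tested.

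BALB/CByJ was the strain most often found on the A/J side, in 33 of the 73 genes (45.2%) and in 95 of the 282 (33.7%). C3H/HeJ followed with 20 of 73, c57BL/6J with 19, and CBA/J and RIIIS/J with 18 each, down to SWR/J with 7. In 9 of the 73 genes no other strain was on the A/J side, in 21 there were 1 to 3, in 29 there were 4 to 7, and in 14 there were at least 8. These counts are descriptions and were not tested.

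**Figure D4:**
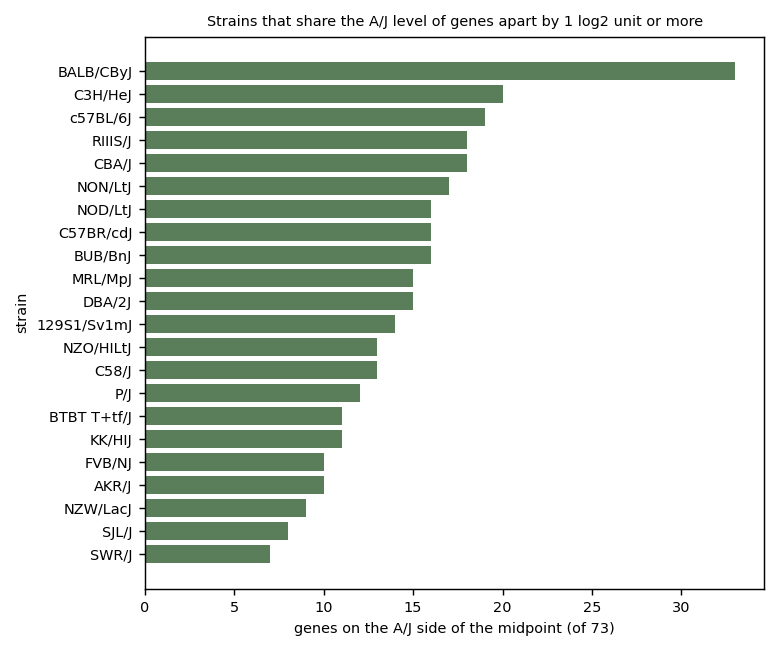
Bars give, for each of 22 strains, how many of the 73 genes called and apart by at least 1 log2 unit have the strain mean on the A/J side of the midpoint. BALB/CByJ has 33 genes, C3H/HeJ 20 and SWR/J 7.

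Along the genome, 29 of 687 tested genes of chromosome 4 were called (4.22%), the highest share of any autosome and above 2.52% over all genes. Tlr4, Xpa, Rmdn1, Ccl27a, Zfp991, Cap1, Car8, Tyrp1 and Calb1 lie there. Of the 282 called genes, 16 (5.67%) had a called gene directly before or after them in the order of tested genes, against 4.91% of the uncalled genes. Baiap2l1 and Nptx2, neighbours on chromosome 5, moved in opposite directions (1.82 and -1.64). Agt and Capn9 on chromosome 8 both rose (0.64 and 1.28), and Tax1bp3 and Ctns on chromosome 11 both fell (-0.68 and -1.36). These pairs were picked after their values were seen. Tax1bp3 was not called without the female A/J array (adjusted p = 0.613), and Agt did not pass the filter without it.

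Of 12 genes known to carry variants in A/J, 6 passed the filter, and Dysf and Tyrp1 were called (33.3%), beside 2.52% of all genes. The list was chosen for A/J and includes Dysf, for which the strain is known. Tyrp1, an enzyme of melanin synthesis whose variant gives brown coats, was higher in A/J at 7.004 and 7.28 against medians of 6.36 and 6.48, with 6 strains on its side and all 3 probe sets called (difference 1.01, SE 0.26, adjusted p = 0.037). Without the male or the female A/J array its adjusted p was 0.274 and 0.588. Cs, the citrate synthase gene, was at 11.19 and 11.27 against 11.27 and 11.36 (difference -0.10, SE 0.10, adjusted p = 0.813). Naip5, a sensor of bacterial flagellin, was near the floor at 3.06 and 3.08 (difference -0.24, adjusted p = 0.748). Mx1 and Ahr had differences of -0.13 and 0.27, neither of them called, and Hc, Cdh23, Tyr, a, Il3ra and Mx2 did not pass the filter.

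In most lists of sensory neuron genes more members lay below than above the other strains in A/J, by small differences. Peptidergic nociceptor genes went the other way (5 higher and 1 lower in both arrays), as did GABA and glutamate receptors (6 and 3) and the neuropeptides given below. Non-peptidergic nociceptor genes (5 and 4) and itch neuron genes (4 and 4) were near even. Some genes stand in more than 1 list, so the lists are not independent of each other. Of 10 tested voltage-gated sodium channel genes, 1 was called, and 9 had both arrays below the mean of the other strains and 0 had both above, beside 40.8% and 28.2% of all genes. Scn2b, an auxiliary beta subunit, was at 7.67 and 7.72 in A/J, with 7.40, 8.39 and 9.78 as the lowest, median and highest other male and 6.81, 8.39 and 9.56 as those of the females. It fell by 0.87 (SE 0.14, adjusted p = 0.000334), with A/J inside the range of the others, and without the male A/J array its adjusted p was 0.0515.

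The mean level of the 10 sodium channel genes was 8.50 in the male and 8.48 in the female A/J array. The other strains had means of 8.58 to 8.98 in males and 8.55 to 9.12 in females, so that A/J was the lowest of 23 in both sexes. The list median was -0.23. The nociceptor channels Scn10a and Scn11a had differences of -0.17 and -0.27, and Scn9a one of 0.02, none of them called.

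Of 11 transcription factors of sensory neurons 1 was called, 7 were lower in both arrays and 1 higher in both. Here and for the lists below, the shares over all genes were 2.52% called, 40.8% lower in both arrays and 28.2% higher in both. Runx1, which sets the fate of non-peptidergic pain neurons, was at 6.33 and 5.88 against 6.30 to 7.76 in the other males and 6.28 to 7.80 in the other females, with medians of 7.18 and 6.99. The female A/J array was below all others, the male just above the lowest, and 2 of 3 probe sets were called lower. Runx1 fell by 0.97 (SE 0.17, adjusted p = 0.000981; 0.243 without the female A/J array). Isl1, needed for sensory neuron identity, was at 9.39 and 9.36 against 9.80 and 9.78 (difference -0.39, adjusted p = 0.0632). The list mean was the lowest of 23 strains in both sexes, 7.02 and 6.87 against medians of 7.33 and 7.12. The margin was narrow, since the lowest means of the other strains were 7.04 in males and 6.89 in females.

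In the receptors of neurotrophic factors 1 of 11 was called (2.52% of all genes), 9 were lower in both arrays (40.8% of all genes) and 1 higher (28.2%). Gfra1, a co-receptor of glial cell line-derived neurotrophic factor, was at 7.59 and 7.65 against medians of 7.88 and 8.21 (difference -0.47, SE 0.12, adjusted p = 0.0324), and was not called without the male (adjusted p = 0.0976) or the female A/J array (0.863). Gfra2, the neurturin co-receptor, was at 10.15 and 9.93 against 10.54 and 10.56 (difference -0.53, adjusted p = 0.201). Ntrk2, the receptor of brain-derived neurotrophic factor, went the other way in both arrays at 8.96 and 8.97 against 8.58 and 8.56 (difference 0.40, adjusted p = 0.198).

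Among calcium channel genes 1 of 11 was called and 10 were lower in both arrays, beside 2.52% and 40.8% of all genes. Cacna1h, a low-threshold channel of touch and pain neurons, was at 6.25 and 6.11 against medians of 7.15 and 7.004 (difference -0.94, SE 0.21, adjusted p = 0.0111; 0.239 and 0.232 without the male or female A/J array). Of 20 potassium and HCN channel genes, 12 were lower in both arrays (40.8% of all genes) and 1 higher (28.2%), and Kcnd3 (-0.60, adjusted p = 0.025) and Kcns3 (-0.41, adjusted p = 0.0336) were called. Without the male or female A/J array the adjusted p was 0.227 and 0.516 for Kcnd3 and 0.0903 and 0.892 for Kcns3. In the nicotinic subunit list Chrna3 was called (5.03 and 4.11 against 5.54 and 5.24, difference -0.87, adjusted p = 0.0209; 0.956 without the female A/J array), while Chrna6, named in the series title, had a difference of -0.16 (adjusted p = 0.872).

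Markers of large myelinated neurons included 2 called genes of 12, with 9 lower in both arrays and 2 higher, beside 2.52% called, 40.8% lower and 28.2% higher of all genes. Nefl, the light neurofilament, was at 13.80 and 13.70, below every other array of its sex (difference -0.26, SE 0.07, adjusted p = 0.0397; 0.196 and 0.787 without the male or female A/J array). Calb1, a calcium-binding protein, was at 7.77 and 7.99 against medians of 8.59 and 8.84 (difference -0.72, SE 0.12, adjusted p = 0.000549). In the 15 general neuron genes 0 were called, with 8 lower in both arrays and 2 higher and a list mean that ranked 4 of 23 from the lowest in both sexes. In the 11 satellite glia genes 0 were called, with 7 higher in both arrays and 2 lower. Whether the share of neuronal RNA bears on the lower channel and receptor genes was not tested.

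Neuropeptides lay on the other side, with 7 of 11 higher in both arrays, 1 lower and a median of 0.23. Tac1, which encodes substance P, was at 12.81 and 13.04, above highest values of 12.69 and 13.03 of the other arrays, in the female by less than 0.01. It rose by 0.40 (SE 0.09, adjusted p = 0.0152), a call lost without the male (0.372) or the female A/J array (0.179). Cartpt and Calcb had differences of 0.56 and 0.25 (adjusted p = 0.0694 and 0.426), and Nts, which varied widely among strains, one of 0.59 (adjusted p = 0.767).

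**Figure D5:**
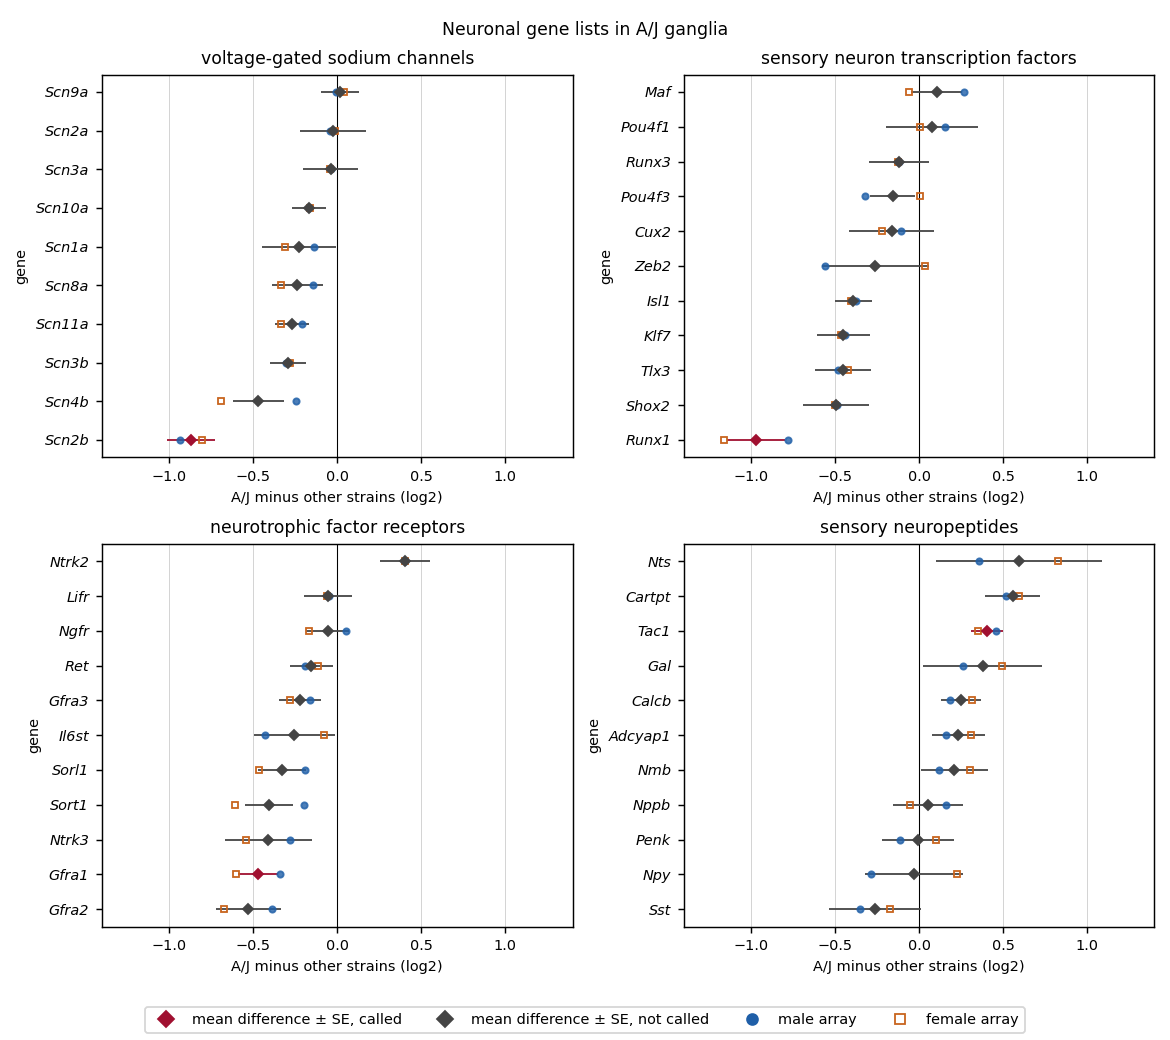
Differences of A/J from the other strains in log2 units for the tested members of 4 gene lists. Diamonds with bars give the fitted mean difference and its SE (red where called), circles the male and squares the female array, and sodium channel genes lie mostly left of 0 while neuropeptide genes lie mostly right of it.

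Single receptors of pain and itch neurons were called in both directions, and are shown as the called members of lists that partly overlap. Called were 2 of 10 itch neuron genes, 1 of 9 non-peptidergic nociceptor genes and 2 of 12 opioid, cannabinoid and monoamine receptor genes. Trpa1 was also the only call among 10 TRP, ASIC and Piezo channels, where 6 were lower in both arrays and 3 higher. Over all genes 2.52% were called. Oprl1, the nociceptin receptor, was at 7.40 and 7.36, above the highest other male at 7.20 and female at 7.29, and all 3 of its probe sets were called higher (difference 0.88, SE 0.17, adjusted p = 0.00268). Agtr1a, an angiotensin receptor of non-peptidergic neurons, was at 8.05 and 8.27, above 7.93 and 8.11 (difference 0.72, SE 0.16, adjusted p = 0.00751). Trpa1, the irritant channel, was at 9.31 and 9.16 against medians of 8.72 and 8.90 (difference 0.55, SE 0.15, adjusted p = 0.048). Each of these calls was lost without either A/J array: without the male one the adjusted p was 0.159 for Oprl1, 0.0877 for Agtr1a and 0.823 for Trpa1, and without the female one it was 0.0676, 0.37 and 0.107.

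Htr1f, a serotonin receptor found in itch neurons, fell by 1.17 (SE 0.31, adjusted p = 0.0409), at 3.81 and 3.17 against medians of 4.75 and 4.86, with 8 strains on its side. Outside the neurons, Postn, a matrix protein, was called lower (-0.79, adjusted p = 0.00545) and Stard4, a cholesterol carrier, higher (0.50, adjusted p = 0.0379). Without the male or female A/J array the adjusted p was 0.0995 and 0.934 for Htr1f, 0.111 and 0.242 for Postn and 0.303 and 0.551 for Stard4. Of the called genes of the neuronal lists, none was called with the spread between strains as the error, with adjusted p-values from 0.186 for Nefl to 0.979 for Htr1f. A single probe set was called of 2 tested for Scn2b, Chrna3, Kcnd3, Kcns3, Nefl and Htr1f, and of 3 tested for Gfra1 and Calb1.

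Class I histocompatibility probe sets, which were picked after their values were seen, depended on the probe set. The leading probe set of H2-D1 was at 9.99 and 9.55 and was not called (difference 0.55, adjusted p = 0.183). Of the others, 3 were called higher by 4.11, 4.23 and 5.12, with 2 other strains on the A/J side, and another was called lower (-1.32). All of these are of the x type, whose probes may cross-hybridise, and class I genes are near copies of each other, so that the level of a single gene is uncertain here. H2-K1 was not called by its leading probe set (0.75, adjusted p = 0.121) and was called lower by another (-1.83).

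At the share of 2.52% over all genes, a short list would hold few calls, so a list without any says little about its function. In 27 lists, with 3 to 21 tested genes each, no member was called. They cover P2X receptors, GABA and glutamate receptors, C low-threshold mechanoreceptors, general neuron genes, synaptic vesicles, nerve injury, immediate early genes, heat shock, the circadian clock, both classes of histocompatibility genes, interferon response, complement, macrophages, granulocytes and red cells, Schwann cells, satellite glia, vessels, muscle, fat, bone, liver, spinal cord, respiration, glutathione, Hox genes and lysosomes. The largest differences in them had wide errors: Myh1, a muscle myosin gene, was at 3.12 and 4.49 (difference -1.89, SE 1.01, adjusted p = 0.496), and S100a8, a granulocyte gene, at 9.13 and 9.21 (difference 1.13, SE 0.62, adjusted p = 0.512). Of the defining muscle markers, which vary with muscle left on the ganglia, Acta1, Ckm and Myh4 were within the range of the other arrays. Myh1 was below all of them in the male A/J array, at 3.12 against a lowest value of 3.54, and Tnnt3 in the female, at 3.43 against 3.73. Of the 15 tested muscle genes 10 were lower in both A/J arrays and 0 higher, with a median of -0.38. The mean level of this list was still well inside the range of the other strains. Among males A/J had 4.97, rank 10 of 23 from the lowest, where the others ran from 4.11 over 5.04 to 7.42. Among females it had 4.40, rank 8 of 23, where the others ran from 3.94 over 4.82 to 6.94.

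Markers of the spinal cord were high in the female A/J array. Of 11 such genes 3 passed the filter: Mobp, a myelin gene of oligodendrocytes, was at 7.60 in the female and 4.54 in the male array, Aqp4, the astrocyte water channel, at 6.80 and 4.85, and Slc1a2, the astrocyte glutamate transporter, at 5.97 and 3.37. Their mean of 6.79 was the highest of 23 female arrays, where the others ran from 3.91 to 6.15, whereas the male mean of 4.25 was near the median of 4.35. Mog and Opalin, which define oligodendrocytes, were near the floor in both (3.42 and 3.03 in the female). Gad1, the enzyme that makes GABA in spinal cord neurons, was called higher (difference 0.93, adjusted p = 0.0176) on values of 5.54 in the female and 3.80 in the male array. The call of Gad1 was lost without the female array (adjusted p = 1). What part spinal cord RNA has in other results was not tested. In all, 6 called genes, Ctns, Dgkq, Cd83, Slc4a1, Gad1 and 4930412C18Rik, differed by more than 1 log2 unit between the deviations of the male and the female A/J array.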

How the data were processed

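Members, gene lists and tests were chosen with earlier results of these data known. The deposited values are linear intensities that the authors made with GCRMA, run in R 2.6.2 according to the submitters' processing notes. They ran from 1.63 to 36604 over 45101 probe sets and were used as log2(value + 1). Their number of 1 array per strain and sex limits the precision. Control probe sets (64) were left out. Testing required a log2 intensity over 4 in 2 or more arrays. Each gene was read from its brightest probe set with 1 symbol alone (11183 tested of 18193 named).

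limma 3.58.1 in R 4.3.3 (lmFit, eBayes) fitted strain means with sex as a term to 46 arrays, with 22 residual degrees of freedom. The contrast was A/J minus the mean of 22 strains, adjusted by Benjamini-Hochberg over all 22130 probe sets tested. On simulated data this fit called 38% of differences of 0.5, 86% of 1 and 100% of 2 log2 units, with 11 false calls. The simulation placed A/J at the mean of the other strains in unchanged probe sets, so it does not gauge ordinary variation between strains. Symbols come from the platform annotation, and chromosomes and neighbours from RefSeq (GRCm38.p6). Probe sequences were not analysed here.

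Named genes are Dysf and the known A/J variants, the 15 largest called differences of at least 1 in each direction, the 5 widest gaps in each direction, and up to 3 called members (or else the largest difference) of each list. Others are marked where they appear or stand in a list, marker set or comparison that names them.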

Additional observations from a re-analysis of the deposited data

Results flagged for a closer look

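In 4 genes named by the rule, the male and the female A/J array lay on opposite sides of the other strains of their sex, and this difference was not tested. Adgre1, a macrophage surface receptor gene, deviated by -0.10 in the male and by 1.27 in the female array. Fos, an immediate early gene, deviated by -0.36 and 1.60, and Dbp, a circadian output gene, by 1.23 and -0.14. P2rx6, an ATP-gated channel gene, deviated by -0.40 and 0.044. A call required both A/J arrays on the same side, so none of the 4 could be called in the comparison of strains.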

How the results depend on the processing

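No paired analysis was possible because A/J gave 1 pool of each sex without replicate numbers, and sex was a term of the fit already. Set against the spread between strains, the fit called 58 probe sets, 10 genes higher and 17 lower, with 4 and 10 apart by at least 1 log2 unit. Leaving out either A/J array left 194 to 275 probe sets, 31 to 51 genes higher and 54 to 70 lower, with 21 to 29 and 34 to 42 apart by at least 1. With log2(value + 16), 13 genes were higher and 19 lower by at least 1, since the constant shrinks differences of dim genes. The other alternatives (no filter or a stricter one, quantile normalization, another prior, SM/J and PL/J kept, 2 arrays with degraded control signal left out, any probe set of a gene) kept every such count within 1.5 times, and the median of the strains, an alternative added after seeing the data, gave 29 and 50. Dysf stayed called throughout. Of 50 named called genes, 42 lost their call against the spread between strains, 19 without the male and 25 without the female A/J array, 6 with SM/J and PL/J kept, 5 without a filter, 2 with log2(value + 16) and 1 with quantile normalization. No direction reversed. Of the 44 large falls, 18 had both A/J arrays below the filter level of 4, where the size of the fall depends on how low values are treated.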
